A study of Homo sapiens with 6 samples.

Results

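Selenoproteins carry selenocysteine, the amino acid in which selenium takes the place of the sulphur of cysteine. The 10 genes described here encode 8 selenoproteins (SEPP1, GPX3, GPX1, GPX4, SEPW1, SELK, SELT and SEPHS2) and 2 proteins of the machinery that inserts selenocysteine (SECISBP2 and SEPSECS), out of 23180 gene symbols in the deposited table. They were picked by name, with earlier results of these data known, the change of SEPP1 among them. P-values of these genes do not allow for this choice. Of each gene's transcripts the one with the largest summed count was taken. All 10 passed the filter on low counts, SEPP1 through the siControl samples alone. The names are those of the table, and the present symbols are SELENOP for SEPP1, SELENOW for SEPW1, SELENOK for SELK and SELENOT for SELT.

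Selenocysteine is encoded by TGA in the gene (UGA in the mRNA), a codon that otherwise ends translation. It is read as selenocysteine when the mRNA holds a selenocysteine insertion sequence (SECIS), a stem-loop of the 3′ untranslated region that is bound by SECISBP2, which brings in the elongation factor EEFSEC with the selenocysteine tRNA. Selenocysteine is made on that tRNA by SEPSECS, from selenophosphate supplied by SEPHS2, which is itself a selenoprotein. Many selenoproteins are redox enzymes: glutathione peroxidases reduce peroxides with glutathione, and thioredoxin reductases keep thioredoxin reduced.

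RNA-Seq was performed in A549 cells, a human lung adenocarcinoma line, to find the genes deregulated upon knock-down of KMT9α, the catalytic subunit of a histone lysine methyltransferase. Unmodified cells of passage 11 were transfected with siControl (3 samples) or with siKMT9α#1 (3 samples), and harvested 3 days later. The siRNA concentration was 65 nM, and the time, the concentration and the siRNA's number come from the study's methods, since the labels give only its target. The labels call the samples biological replicates, so p-values measure the spread between these samples, pooled in part over genes. A single siRNA sequence was used against KMT9α, and the loss of KMT9α and other effects of this siRNA cannot be told apart. In bulk RNA, fewer cells of a kind and less RNA per cell cannot be told apart either.

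The TGA codons are the feature that the 8 selenoproteins share, and the first of each gene is given here with 12 coding bases on either side, from the GRCh37 genome and annotation. Capitals mark the TGA read as selenocysteine. In SELK the stretch stops where the coding sequence ends.
SEPP1, codon 59: cttcaagccagcTGAtacctgtgcata
GPX3, codon 73: gtggccagctacTGAggcctgacgggc
GPX1, codon 49: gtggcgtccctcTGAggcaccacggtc
GPX4, codon 73: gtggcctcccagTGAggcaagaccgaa
SEPW1, codon 13: tattgtggcgctTGAggctacaagtcc
SELK, codon 92: atggctggtggaTGAggaagg
SELT, codon 49: atttgtgtttccTGAggttataggcgg
SEPHS2, codon 60: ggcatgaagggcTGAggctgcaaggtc

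In 7 of these 8 stretches the TGA was followed by a glycine codon (GGN), the exception being SEPP1, where the tyrosine codon TAC follows. Over the first TGA codons of all 25 human selenoprotein genes, 13 (52.0%) were followed by GGN. In SEPW1 and SELT a cysteine codon (TGT or TGC) stood 3 codons before the TGA, the layout of a thioredoxin-like redox site, and in SEPP1 one stood 3 codons after it. SELK had its TGA at codon 92 of 94, nearly at the end of the protein. The codons lie at chr5:42808279-42808281 on the minus strand (SEPP1, exon 2 of 5), chr5:150405030-150405032 on the plus strand (GPX3, exon 2 of 5), chr3:49395565-49395567 on the minus strand (GPX1, exon 1 of 2) and chr19:1105402-1105404 on the plus strand (GPX4, exon 3 of 7). The others lie at chr19:48283989-48283991 on the plus strand (SEPW1, exon 2 of 6), chr3:53919858-53919860 on the minus strand (SELK, exon 4 of 5), chr3:150340179-150340181 on the plus strand (SELT, exon 2 of 6) and chr16:30456869-30456871 on the minus strand (SEPHS2, which has a single exon).

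SEPP1, the plasma protein that carries selenium to other tissues, is the only one of the 8 with more than 1 such codon. Its coding sequence of 381 codons holds 10 TGA codons. The other 9 lie between codons 300 and 378, all in exon 5, the last. The first of that group is at chr5:42801068-42801070, and a cysteine codon (tgc) directly follows it.
SEPP1, codon 300: gctcctaggagcTGAtgctgccattgt

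The knock-down was seen in every sample. N6AMT1, which encodes KMT9α, had 10.2, 10.8 and 11.5 CPM (TMM-scaled counts relative to the library total) in siControl and 2.87, 3.22 and 3.35 in siKMT9α#1 cells, so that its log2 fold change was -1.77 (standard error, SE, 0.12; adjusted p = 1.42e-10 by the quasi-likelihood F test of edgeR after Benjamini-Hochberg correction). Samples held 13740098 to 19832394.5 estimated counts on the chosen transcripts. Within each group 1 sample stood somewhat apart: the chi-square per gene of siKMT9α#1 replicate 3 against the others of its group was 5.19 and 4.52 (1.35 between those), and that of siControl replicate 1 was 4.72 and 4.04 (1.81 between those), against at least 105 between groups. Without either sample, the calls of the 9 genes other than SEPP1 at an adjusted p under 0.05 were as given here. All 6 A549 and epithelial markers were present (KRT8, KRT18, ALDH1A1, AKR1B10, AKR1C1 and NQO1), with a summed level of 7730 to 8100 CPM in siControl and 6310 to 6450 CPM in siKMT9α#1 samples. The sum hides different moves. The log2 fold changes were -2.30 for AKR1C1, -1.28 for KRT8, -1.22 for AKR1B10, -0.75 for KRT18, -0.11 for NQO1 and 0.70 for ALDH1A1. Of 9 markers of leukocytes, endothelium and fibroblasts, 7 were below 1 CPM in every sample, with CD3E at 0. Their summed level was 82.8 to 90.1 CPM in siControl and 30.2 to 32.1 CPM in siKMT9α#1 cells, nearly all of it from CD68, a lysosomal protein that is also made outside leukocytes, and its part in the results was not tested.

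Upon knock-down of KMT9α, the transcripts of both secreted selenoproteins, SEPP1 and GPX3, were far lower, while those of the 6 other selenoproteins moved by at most 1.37-fold (SEPW1). SEPW1, SELK, SELT and the SECIS-binding protein gene SECISBP2 fell, GPX4 and SEPSECS rose, and GPX1 and SEPHS2 did not pass the test. Leaving out SEPP1, for which no test is given, 5 of the other 9 genes were lower and 2 higher at an adjusted p under 0.05. Among all 13877 genes tested, 75.6% passed that threshold, 38.5% lower and 37.1% higher, so 7 of 9 is near the background. The median log2 fold change of the 10 genes was -0.30, and that of all genes tested was -0.01. The groups did not overlap for 9 of the 10 genes, against 77.0% of all genes tested. Both of these values for the 10 genes count SEPP1, whose change was known when it was chosen. Library sizes alone in place of TMM factors moved the median of all genes to -0.12. The split of the 9 genes was then 6 lower and 1 higher, beside 6212 and 4359 of all 13877 genes. At the study's threshold (unadjusted P under 1e-08 and an absolute log2 fold change over 0.26) 2 of the 9 genes passed (GPX3 and SECISBP2), against 24.2% of all genes tested. The study names edgeR but not which of its tests, and the share depends on that choice. With edgeR's likelihood-ratio test the same 2 genes passed, beside 5962 of all 13877 genes. By the quasi-likelihood F test of edgeR, SECISBP2 missed this threshold without siControl replicate 2 or 3 or without siKMT9α#1 replicate 1 or 2 (unadjusted P of 1.11e-08 to 3.29e-08). In these settings 2326 to 2924 of 13976 to 14171 genes tested passed it, against 3357 of 13877 with all samples.

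**Figure D1:**
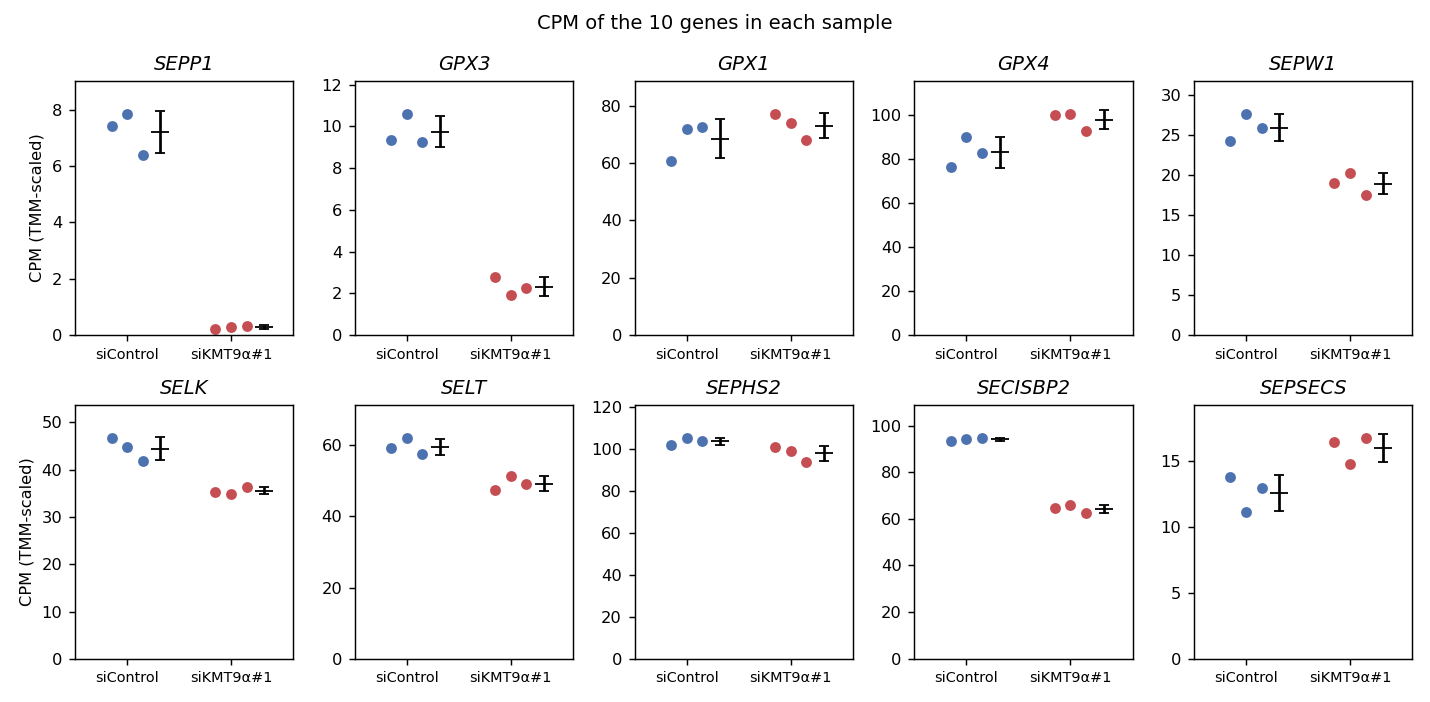
TMM-scaled CPM of the 10 genes in each of 3 siControl and 3 siKMT9α#1 samples (points), with the mean and SD of each group beside them. Each panel has its own axis from 0. SEPP1 and GPX3 stand lowest against their siControl samples, and only in GPX1 do the groups overlap.

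**Figure D2:**
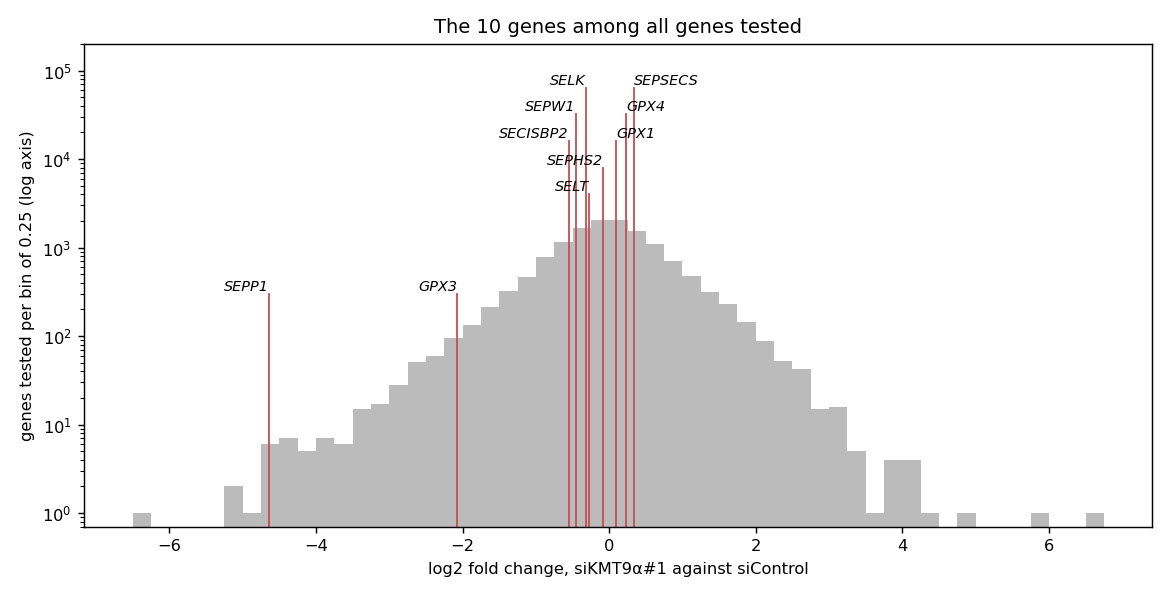
Number of the 13877 genes tested per bin of log2 fold change (grey bars, log axis), with the log2 fold changes of the 10 genes as red lines, whose height only makes room for the names. SEPP1 lies in the far left tail at -4.64 and GPX3 at -2.07, and the other 8 lie between -0.55 and 0.34.

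SEPP1 is listed as transcript NM_005410, on chromosome 5 of hg19 from 42799982 to 42812024. Its estimated counts were 139.5, 127 and 123 in siControl and 3, 4 and 6.5 in siKMT9α#1 cells. As CPM these were 7.41, 7.84 and 6.40 against 0.227, 0.292 and 0.340. Every siKMT9α#1 sample was therefore near the bottom of what this depth can measure, and every siControl sample was well above it. The log2 fold change was -4.64 (SE 0.24), and 5 of the 13877 genes tested had a lower one. From the summed, rounded counts of 390 and 14, SEPP1 was 23.6-fold lower, with a 95% interval of 13.9 to 43.6 that covers counting error only. The change is given without a test, because SEPP1 was chosen for it. The table lists 3 transcripts of SEPP1, and their counts were identical in every sample, so isoforms could not be compared.

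SEPP1 overlaps CCDC152, a gene on the opposite strand, and the reads of these genes cannot be told apart, since the sources used here do not say whether the counting used the strand. The annotated exons share 1452 bases, which is 70.6% of the exon bases of SEPP1 and 41.6% of those of CCDC152. CCDC152 had 82, 77 and 79.5 estimated counts in siControl and 2, 2 and 4 in siKMT9α#1 cells, and its log2 fold change was -4.61 (SE 0.28). In each sample its count was between 50% and 66.7% of that of SEPP1. No other of the 10 genes had a deposited span that overlapped another symbol.

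The genes closest to SEPP1 in level and pattern were searched among all genes tested, by the Euclidean distance between log2(CPM + 0.5) values over the 6 samples, with CCDC152 left out. DUSP9, a MAP kinase phosphatase gene, was nearest at a distance of 0.324. It had 7.17, 7.75 and 7.12 CPM in siControl and 0.302, 0.438 and 0.366 CPM in siKMT9α#1 cells. TMEM63C (0.785), ECM2 (0.813), IL21R (0.934) and FAM26E (1.05) followed, with 4.29 to 6.11 CPM in siControl samples and 0.0731 to 0.366 CPM in siKMT9α#1 samples. The search asked for the values of SEPP1 itself, so low levels in siControl cells and near absence upon knock-down were fixed by it. These 5 genes lie on other chromosomes than SEPP1.

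GPX3, the glutathione peroxidase that is secreted into plasma, was the other large change. The table lists it as transcript NM_002084, on chromosome 5 from 150399999 to 150408554. It had 176.5, 171.5 and 178.5 estimated counts in siControl and 37, 26.5 and 43 in siKMT9α#1 cells. In CPM these were 9.37, 10.6 and 9.28 against 2.80, 1.94 and 2.25, so that all knock-down samples were far below all siControl samples. GPX3 fell by 2.07 on the log2 scale (SE 0.14, 95% interval -2.38 to -1.77, adjusted p = 1.48e-10 by the quasi-likelihood F test of edgeR after Benjamini-Hochberg correction), or 4.20-fold. SEPP1 and GPX3 had levels of the same order in siControl cells, and what was left of their summed counts, after library size, was 4.23% (95% counting interval 2.29% to 7.19%) for SEPP1 and 23.8% (19.1% to 29.3%) for GPX3.

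GPX1 and GPX4 did not fall as GPX3 did. GPX1 is the widespread cytosolic glutathione peroxidase, and GPX4 reduces lipid hydroperoxides in membranes and protects cells from ferroptosis. GPX1 (chromosome 3, 49394609 to 49395791) had 60.6, 71.97 and 72.7 CPM in siControl and 77.0, 74.0 and 68.2 CPM in siKMT9α#1 cells, and the groups overlapped. Its log2 fold change was 0.09 (SE 0.07, 95% interval -0.05 to 0.23, adjusted p = 0.222 by the quasi-likelihood F test of edgeR after Benjamini-Hochberg correction), which leaves room for a rise or a small fall. GPX4 (chromosome 19, 1103936 to 1106787) had 76.3, 90.2 and 82.6 CPM in siControl cells and 100.1, 100.4 and 92.8 CPM in siKMT9α#1 cells. All knock-down samples of GPX4 were above all siControl samples, and it rose by 0.24 on the log2 scale (SE 0.06, adjusted p = 0.0014 in the same test). Both values moved with the scaling. With library sizes alone the log2 fold change of GPX1 was -0.01 and that of GPX4 was 0.13, with its call lost (adjusted p = 0.0575), whereas offsets computed in each sample from GC content and length gave 0.40 for GPX1, now past the threshold (adjusted p = 6.7e-08 with edgeR), and 0.53 for GPX4. Their transcripts have 62.4% and 62.3% GC, the highest of the 10 genes.

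SEPW1, a small cytosolic selenoprotein with a thioredoxin-like fold, and the selenoproteins of the endoplasmic reticulum SELK and SELT, all fell. SELK takes part in calcium flux and protein palmitoylation, and SELT has a thioredoxin-like fold like SEPW1. SEPW1 (chromosome 19, 48281842 to 48287943) had 24.3, 27.6 and 25.9 CPM in siControl cells and 19.1, 20.2 and 17.6 CPM in siKMT9α#1 cells. It fell by 0.46 on the log2 scale (SE 0.08, adjusted p = 2.94e-05 by the quasi-likelihood F test of edgeR after Benjamini-Hochberg correction). SELK (chromosome 3, 53919226 to 53925989) had 46.7, 44.7 and 41.9 CPM in siControl cells against 35.4, 34.9 and 36.3 CPM. It fell by 0.32 (SE 0.06, adjusted p = 0.000104 with edgeR). SELT (chromosome 3, 150321066 to 150348234) went from 59.0, 62.0 and 57.3 CPM to 47.3, 51.3 and 48.9 CPM, a fall of 0.27 (SE 0.06, adjusted p = 0.000226 with edgeR). In all of these genes each knock-down sample was below each siControl sample. With GC and length offsets the falls of SEPW1, SELK and SELT shrank to -0.23, -0.19 and -0.19 and kept their calls. SEPW1, SELK, SELT, GPX1 and SEPHS2 have annotated pseudogenes (1, 3, 2, 2 and 1), and reads that match both copies make their levels less certain.

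The 3 genes of selenocysteine synthesis and insertion moved in different directions. SECISBP2, whose product binds the SECIS element and is needed for insertion, is listed on chromosome 9 from 91933412 to 91974561. It had 93.4, 94.2 and 94.7 CPM in siControl and 64.6, 65.9 and 62.6 CPM in siKMT9α#1 cells, the narrowest siControl spread of the 10 genes relative to its level. SECISBP2 fell by 0.55 on the log2 scale (SE 0.05, 95% interval -0.65 to -0.45, adjusted p = 5.15e-09 by the quasi-likelihood F test of edgeR after Benjamini-Hochberg correction). SEPSECS, the synthase that makes selenocysteine on its tRNA (chromosome 4, 25121627 to 25162204), had 13.8, 11.1 and 12.9 CPM in siControl and 16.5, 14.8 and 16.8 CPM in siKMT9α#1 cells. It rose by 0.34 (SE 0.10, adjusted p = 0.00309 with edgeR), and by 0.21 with GC and length offsets. SEPHS2, the selenophosphate synthetase (chromosome 16, 30454952 to 30457224), stood at 102, 105.3 and 103.8 CPM in siControl and 100.9, 99.1 and 93.8 CPM in siKMT9α#1 cells. Its groups did not overlap, yet the log2 fold change of -0.08 did not pass the test (SE 0.05, 95% interval -0.19 to 0.02, adjusted p = 0.122 with edgeR). With library sizes alone it was -0.19 and passed (adjusted p = 0.00161 with edgeR).

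**Figure D3:**
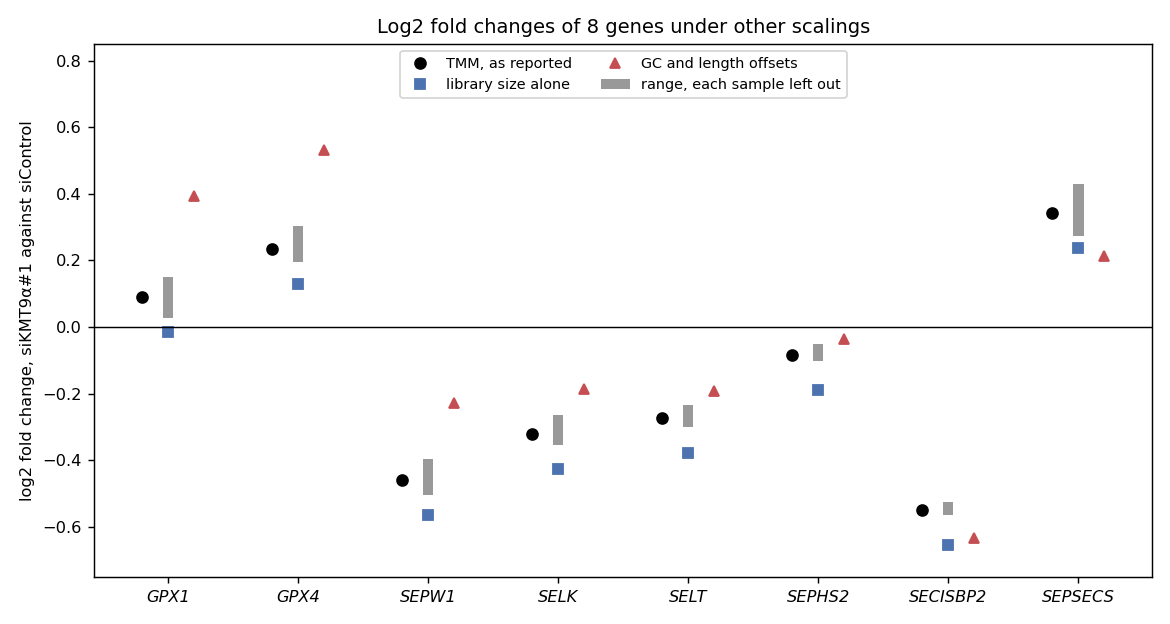
Log2 fold changes (siKMT9α#1 against siControl) of the 8 genes other than SEPP1 and GPX3: as reported with TMM factors (circles), with library sizes alone (squares) and with offsets for GC content and length (triangles), with grey bars for the range when each sample was left out in turn. SECISBP2, SEPW1, SELK and SELT lie below 0 and GPX4 and SEPSECS above 0 in all of them, whereas GPX1 lies at -0.01 with library sizes alone and at 0.40 with the offsets.

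Levels were compared between genes as CPM per kb of the transcript length given in the table. In siControl cells GPX4 was the highest of the 10 at 89.6 ± 7.49 CPM per kb (SD, n = 3). GPX1 (57.9 ± 5.74) and SELK (54.9 ± 3.03) followed, with ranges that overlapped each other, and then SEPHS2 (45.6 ± 0.74). The length listed for GPX1, 1182 bases, spans its whole gene with the intron, which lowers its level per kb. Below these came SEPW1 at 29.9, SECISBP2 at 27.4 and SELT at 17.1 CPM per kb. The secreted proteins and the synthase were lowest, with GPX3 at 5.56, SEPP1 at 3.47 and SEPSECS at 2.24 CPM per kb. Apart from GPX1 and SELK, no neighbours in this order overlapped. In siKMT9α#1 cells the first 7 kept their places, with overlapping ranges of SELK (43.9) and SEPHS2 (43.1). The last 3 changed order, with SEPSECS at 2.85, GPX3 at 1.33 and SEPP1 at 0.138 CPM per kb. The genes that changed most were of low level, and the summed level of the 8 selenoproteins had overlapping ranges, at 304 ± 14.6 in siControl and 292 ± 10.4 CPM per kb in siKMT9α#1 cells (SD, n = 3).

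**Figure D4:**
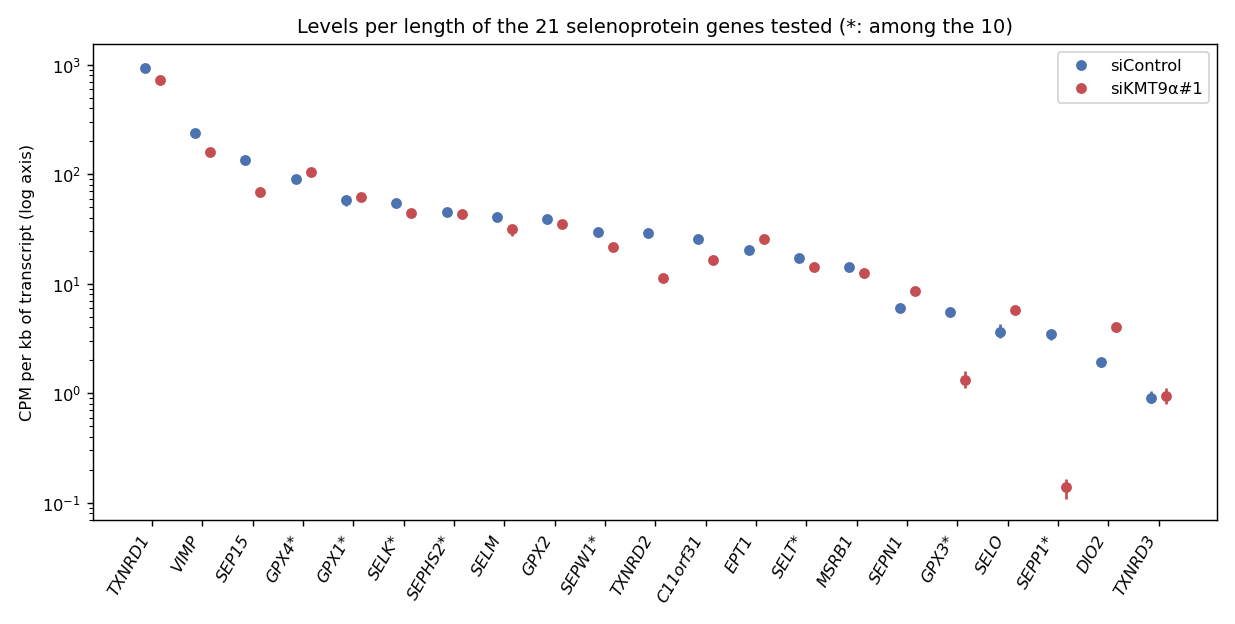
Mean level of the 21 selenoprotein genes tested, as CPM per kb of transcript on a log axis, in siControl and siKMT9α#1 cells, with lines for the range of 3 samples (hidden by the point where narrow). Asterisks mark the 8 selenoproteins among the 10 genes. TXNRD1 is the highest in both groups, and SEPP1 and GPX3 have the widest distance between the groups on this axis.

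The other 17 human selenoprotein genes give the setting of these values. Of the 13 that were tested, 8 were lower and 4 higher, beside 38.5% and 37.1% of all genes tested, and the median log2 fold change was -0.19. GPX6 and SELV had 0 counts in every sample, DIO1 had at most 0.5 counts and DIO3 at most 5, and these 4 were not tested. TXNRD1, the cytosolic thioredoxin reductase, was by far the most abundant, at 52.2% of the summed CPM per kb of all selenoprotein genes tested in siControl and 51.7% in siKMT9α#1 cells. It had 3549 to 3806 CPM in siControl samples and 2779 to 2795 CPM in siKMT9α#1 samples and fell by 0.39 on the log2 scale (adjusted p = 8.7e-07 by the quasi-likelihood F test of edgeR after Benjamini-Hochberg correction). TXNRD2, the mitochondrial one, fell by 1.35 (adjusted p = 1.17e-12 with edgeR), from 52.3, 58.9 and 57.3 CPM to 23.5, 20.4 and 22.1 CPM. Among the selenoproteins of the endoplasmic reticulum, the gene SEP15 (SELENOF, which the table lists as a date) fell by 0.98, VIMP (SELENOS, of the pathway that removes misfolded proteins) by 0.58 and SELM by 0.40 (-0.19 with GC and length offsets), as SELK and SELT did. The nuclear C11orf31 (SELENOH) fell by 0.65.

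The selenoproteins that rose were fewer. DIO2, the deiodinase that activates thyroid hormone, went from 12.7, 10.6 and 12.3 CPM in siControl to 25.7, 22.2 and 26.8 CPM in siKMT9α#1 cells, and the log2 fold change was 1.07 (SE 0.09, adjusted p = 3.02e-09 by the quasi-likelihood F test of edgeR after Benjamini-Hochberg correction). SELO, which transfers AMP to proteins, rose by 0.65, SEPN1, another protein of the endoplasmic reticulum, whose loss causes a congenital muscle disease, by 0.51, and EPT1, which makes phosphatidylethanolamine, by 0.35. The call of EPT1 was lost with GC and length offsets (0.09, adjusted p = 0.0649 with edgeR). GPX2, the gastrointestinal peroxidase, and MSRB1, a methionine sulfoxide reductase, had log2 fold changes of -0.17 and -0.19 that passed narrowly (adjusted p = 0.0188 and 0.0461), and with the offsets they were 0.04 and 0.06 and did not pass. Both calls were also lost with DESeq2 (adjusted p = 0.0961 and 0.174). That of GPX2 was lost without siControl replicate 1 (-0.12), siControl replicate 2 (-0.15) or siKMT9α#1 replicate 3 (-0.15), and that of MSRB1 without any siControl sample or without siKMT9α#1 replicate 2 or 3 (-0.12 to -0.21). TXNRD3 did not pass (0.05, adjusted p = 0.806). The deposited spans of TXNRD1, TXNRD2, TXNRD3, DIO2, C11orf31, EPT1 and GPX2 overlap other symbols, so shared reads make their values less certain.

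Over all 21 selenoprotein genes tested, the summed level was 1803 ± 45.3 CPM per kb in siControl and 1391 ± 1.69 CPM per kb in siKMT9α#1 cells (SD, n = 3), a ratio of 0.772. Without TXNRD1 the ratio was 0.78, so the lower sum did not rest on this gene alone. A sum is weighted to abundant genes, however. The next in level were VIMP, from 240 to 160 CPM per kb, and SEP15, from 136 to 68.6. GPX4, after these in siControl cells, rose from 89.6 to 105.6. For the 8 selenoproteins among the 10 genes the ratio was 0.96, so 0.772 does not describe each gene. For the sum over all 21 genes the ranges of the 3 samples were far apart, and a two-sided exact permutation test of 3 against 3 samples cannot go below p = 0.1.

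The genes of the selenium pathway outside the 10 moved by a median of 0.17 on the log2 scale. Of the 13 tested, 7 rose and 4 fell, beside 37.1% and 38.5% of all genes tested. With library sizes alone 6 rose and 6 fell, beside 4359 and 6212 of all 13877 genes. EEFSEC, the elongation factor that delivers selenocysteine to the ribosome and works with SECISBP2, went the opposite way to it. It had 4.25, 4.51 and 6.01 CPM in siControl and 13.0, 11.6 and 12 CPM in siKMT9α#1 cells, which is 1.30 higher on the log2 scale (SE 0.12, adjusted p = 1.56e-08 by the quasi-likelihood F test of edgeR after Benjamini-Hochberg correction). NCL, the nucleolar protein nucleolin, which also binds SECIS elements, rose from 453.5 to 477.1 CPM in siControl samples to 1217 to 1246 CPM in siKMT9α#1 samples (log2 fold change 1.40, adjusted p = 2.9e-15 with edgeR). LRP8, a receptor through which cells take up SEPP1, rose by 0.67 (adjusted p = 3.14e-07 with edgeR), from 29.5 to 30.1 CPM up to 40.8 to 53.7 CPM, and by 0.30 with GC and length offsets. LRP2, the other uptake receptor, had 0.5 to 8.5 counts and was not tested.

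On the side of tRNA synthesis the steps differed. SARS, the seryl-tRNA synthetase that charges the tRNA with serine, fell by 0.69 on the log2 scale (adjusted p = 4.89e-11 by the quasi-likelihood F test of edgeR after Benjamini-Hochberg correction), from 420.2 to 436.7 CPM in siControl samples to 263.3 to 269.4 CPM. PSTK, the kinase that phosphorylates this serine before SEPSECS acts, fell by 0.33 (adjusted p = 0.0175 with edgeR), a call that was lost with GC and length offsets (-0.23, adjusted p = 0.0895), with DESeq2 (-0.32, adjusted p = 0.11), without siControl replicate 3 (-0.24, adjusted p = 0.121) and without siKMT9α#1 replicate 2 (-0.31, adjusted p = 0.0514). SEPHS1, the paralogue of SEPHS2, fell by 0.29. The tRNA-modifying enzymes TRIT1 and ALKBH8 rose by 0.45 and 0.44. SECISBP2L, the paralogue of SECISBP2, rose by 0.29, a call that was lost with the offsets (0.05, adjusted p = 0.41 with edgeR). SCLY, which releases selenium from free selenocysteine, rose by 0.17 (adjusted p = 0.03 with edgeR), a call that was lost with library sizes alone (0.07), with DESeq2 (0.18, adjusted p = 0.0661) and without siControl replicate 1, siKMT9α#1 replicate 2 or siKMT9α#1 replicate 3 (0.12, 0.17 and 0.16). EIF4A3, which competes with SECISBP2 on some SECIS elements, fell by 0.24, and had -0.12 with the offsets. TRNAU1AP (-0.13) and RPL30 (-0.00) did not pass, with adjusted p of 0.162 and 0.958. NCL, SCLY, LRP8, TRNAU1AP and RPL30 also overlap other symbols in the table.

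Homologues that carry cysteine in place of selenocysteine were read in the same fit, since they need no SECIS element. GPX8, a peroxidase of the endoplasmic reticulum, fell by 1.56 on the log2 scale (adjusted p = 3.41e-14 by the quasi-likelihood F test of edgeR after Benjamini-Hochberg correction), from 277.5, 242 and 239 CPM to 79.9, 85.9 and 91.1 CPM. MSRB2, a mitochondrial methionine sulfoxide reductase, fell by 0.45 (adjusted p = 0.000781 with edgeR). MSRA (0.10) and MSRB3 (-0.15) did not pass, with adjusted p of 0.274 and 0.0521, and GPX5 and GPX7 had 0 counts in every sample. The calls of MSRA and MSRB3 turned on the processing, while those of GPX8 and MSRB2 held in all 17 alternatives. With GC and length offsets MSRB3 was -0.34 (adjusted p = 5.52e-05 with edgeR) and MSRA 0.24 (adjusted p = 0.00852), and MSRB3 passed in 6 of 17 alternatives, among them library sizes alone (-0.26) and leaving out siControl replicate 1 (-0.18, adjusted p = 0.035 with edgeR). Of the 4 homologues tested, 2 fell and 0 rose, beside 38.5% and 37.1% of all genes tested.

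**Figure D5:**
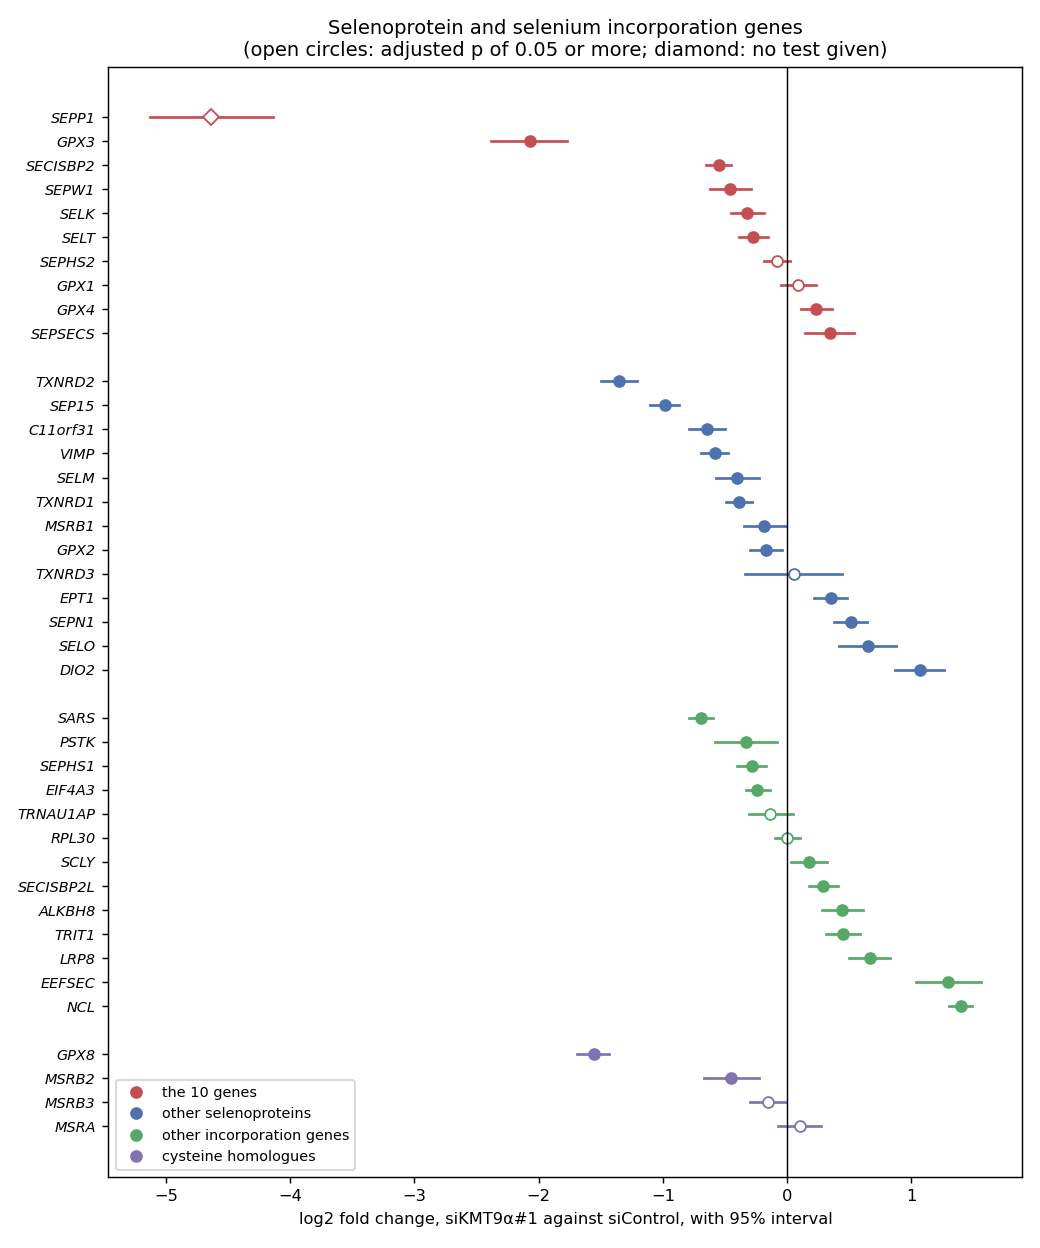
Log2 fold changes (siKMT9α#1 against siControl) with 95% intervals from edgeR for the 10 genes, the other selenoproteins, the other selenium incorporation genes and the cysteine homologues that were tested, 40 genes in all. Open circles did not pass an adjusted p of 0.05, and SEPP1 is a diamond because no test is given for it. The interval of SEPP1 is drawn for its width only, since the gene was chosen for this change. SEPP1 and GPX3 lie to the left of all others, and NCL, EEFSEC and DIO2 lie farthest to the right.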

How the data were processed

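RNA-Seq of 6 A549 samples was analysed. For alignment to hg19 the authors used STAR 2.5, and for counting on RefSeq transcripts HOMER. They deposited estimated counts without normalization (36.4% were not whole, all multiples of 0.5). The deposited transcript length was used for levels per kb. The table's ratio (linear fold change) and its raw and adjusted p-value columns, which the authors had made with edgeR, were not used. HOMER's options, the strand setting and the library type are not given in the sources used here. Of 38767 rows, 1182 without a symbol and counts were left out. Each symbol was represented by the transcript with the largest summed count.

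Rounded counts were fitted in R 4.3.3 by edgeR 4.0.16 (TMM factors, filterByExpr, quasi-likelihood F test, two-sided, Benjamini-Hochberg over 13877 genes). The fit was first tested on simulated data. Few genes were changed in the simulation, so it does not test TMM scaling where most genes are called. The biological coefficient of variation was 4.47%. Standard errors are the log2 fold change divided by the square root of F, and 95% intervals use 18.6 degrees of freedom. Of these, 14.6 are borrowed from other genes by the fit. TGA codons with their positions, exons and GC content came from GENCODE annotation and sequence of GRCh37, to which 96.5% of symbols matched. Gene spans came from the deposited table.

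The 10 genes and all lists were chosen with earlier results of these data known, and p-values do not allow for this choice. Named were the 10 genes, the genes of the lists, N6AMT1, genes overlapping the 10, and the 5 genes nearest to SEPP1. Alternatives were edgeR's likelihood-ratio test, DESeq2 1.42.0, RLE factors, library sizes alone, a minimum of 10 counts in each sample, no filter, every transcript, doubled counts, a replicate block, GC and length offsets with and without it, and each sample left out. Protein sequences and proteome data were not analysed here.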

Additional observations from a re-analysis of the deposited data

How the results depend on the processing

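Of the 9 genes other than SEPP1, 5 or 6 were lower and 1 to 3 higher over the alternatives. Library sizes alone gave 6 lower and 1 higher, beside 6212 and 4359 of all 13877 genes. GC and length offsets gave 5 lower and 3 higher, beside 5361 and 5287 of all 13877 genes. With at least 10 counts in every sample SEPP1 was not tested, and no value could be given. In that setting 5 were lower and 2 higher, beside 4978 and 4830 of all 12869 genes. Genes past the study's threshold numbered 3357 of 13877 tested, 5962 of 13877 with the likelihood-ratio test and 6070 of 18751 with no filter. Over the other alternatives they ranged from 2326 (without siKMT9α#1 replicate 2) to 4734 (GC and length offsets with replicate block). Of the cysteine homologues, 1 was higher with GC and length offsets, with or without the replicate block, against 0. Some log2 fold changes near 0 turned. With library sizes alone GPX1 was -0.014, TXNRD3 -0.052 and MSRA -0.005. RPL30 was 0.008 with DESeq2, 0.009 with RLE factors and with no filter, 0.016 with doubled counts and 0.07 with GC and length offsets, with or without the block. With the offsets GPX2 was 0.038 and MSRB1 0.057, and with the block added 0.041 and 0.058. With each sample left out, TXNRD3 ranged from -0.066 to 0.177 and RPL30 from -0.013 to 0.028. The cause was not tested. The labels do not say that replicate numbers pair samples, and the deviations of same-numbered samples correlated at -0.08, 0.02 and -0.08, with no sample closest to its own number. The replicate block left 5 of the 9 genes other than SEPP1 lower and 2 higher, and ended the call of MSRB1 (-0.18, adjusted p = 0.0689 with edgeR). It left SECISBP2 outside the study's threshold (unadjusted P of 6.79e-08 with edgeR), which 2342 of all 13877 genes passed with the block. With it 5017 genes were called higher and 5212 lower. Calls that changed otherwise were those of GPX1, GPX4, SEPHS2, GPX2, EPT1, PSTK, SECISBP2L, TRNAU1AP, RPL30, SCLY, MSRA and MSRB3. At 3 to 6.5 counts per siKMT9α#1 sample, depth limits the value for SEPP1.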
